A study of Mus musculus with 8 samples.

Results

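Serpina3f, Serpina3g and Serpina3h are 3 neighbouring genes of the Serpina3 cluster on mouse chromosome 12, and they are described here in pre-B cells and in LSK cells of Dido1∆E16 and control mice. They were chosen by name from a comparison of these same pre-B libraries, so their RNA values by genotype are a description and carry no test. The 3 genes account for 7 of the 63753 transcripts and 3 of the 26201 genes in the files. Levels are in TPM, the depth- and length-normalised unit of StringTie. By gene sums all 3 had a mean level of at least 1 TPM, as did 11888 genes in all. Serpina3h reached it only with bases aligned to an exon of Serpina3g, as described per exon. The files list 11 Serpina3 genes.

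Serpins are protease inhibitors that offer an exposed loop to a protease and trap the enzyme when the loop is cut. In the mouse, the single human SERPINA3 gene, which encodes antichymotrypsin, corresponds to a cluster of duplicated genes whose loops differ. Serpina3g, also known as Spi2A, lacks a classical secretion signal, acts inside leukocytes on lysosomal cysteine cathepsins and serine proteases, and is known as a gene induced by interferon-gamma and NF-kB. Serpina3f is a close paralogue. Serpina3h is annotated as a transcribed pseudogene.

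The RNA-seq part held 2 WT and 2 Dido1∆E16 libraries of pre-B cells (B-cell precursors sorted from bone marrow by surface markers), each from a pool of mice. The Omni-ATAC-seq part held 2 WT and 2 Dido1∆E16 libraries of LSK cells (lineage-negative, Sca-1+, cKit+ bone marrow progenitors). All mice were C57BL/6. By the methods of the study they were aged 6 to 10 weeks and matched for sex and age. Elsewhere the study describes these libraries as from male mice of different ages. Dido1∆E16 mice carried 1 Dido1 allele without the 3'-terminal exon 16 and 1 floxed allele, which an iCre driven by the Vav1 promoter deletes in hematopoietic cells. The WT mice were littermates that, by the study's description, carried the floxed allele and a functional one. Both genotypes carried the same iCre and an EYFP reporter, so that the iCre acts on 1 allele of the WT mice too. The deletion was read in the pre-B libraries from the scaled coverage of Dido1 exon 16, which was 24.6 and 21.8 in the WT libraries against 0.295 and 0.0843 in those of Dido1∆E16. The study calls the 2 libraries of a genotype biological replicates in each part. The labels do not say from which mice they came, so p-values measure only the spread between these libraries, which may be partly technical.

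The 3 genes run in the same direction on the plus strand of GRCm38/mm10. Serpina3f lies at chr12:104214544-104221129, Serpina3g at chr12:104236242-104241934 and Serpina3h at chr12:104247896-104254405. They have 5 exons in common, and the expressed Serpina3f transcript has a further exon of 212 bases. Over the 5 shared exons, Serpina3f and Serpina3g were 88.8% identical, Serpina3g and Serpina3h 88.2% and Serpina3f and Serpina3h 88.2%. The long coding exon was 95.2% to 96.5% identical over the 3 pairs. The last exon, which encodes the inhibitory loop, had the lowest identity in each pair, at 82.9% between Serpina3f and Serpina3g. The coding exon of 151 bases is shown as an example of how alike the copies are. It is printed from the RefSeq genome GRCm38.p6 for Serpina3f (chr12:104219419-104219569), Serpina3g (chr12:104240247-104240397) and Serpina3h (chr12:104252685-104252835), with capitals marking the 10 bases of Serpina3f and the 10 bases of Serpina3h that differ from Serpina3g.
Serpina3f exon: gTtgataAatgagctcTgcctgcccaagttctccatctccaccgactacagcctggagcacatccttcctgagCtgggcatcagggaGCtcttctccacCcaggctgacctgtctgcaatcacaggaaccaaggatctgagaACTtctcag
Serpina3g exon: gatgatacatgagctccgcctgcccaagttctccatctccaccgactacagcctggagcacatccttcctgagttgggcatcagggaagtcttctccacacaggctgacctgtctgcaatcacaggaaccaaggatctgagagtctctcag
Serpina3h exon: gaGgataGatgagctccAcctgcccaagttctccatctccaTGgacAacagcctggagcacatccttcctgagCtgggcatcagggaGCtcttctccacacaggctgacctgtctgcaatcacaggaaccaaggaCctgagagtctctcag

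This likeness bears on how reads could be told apart. Of the windows of 50 bases in the exons of Serpina3g, 16.9% occurred again, letter for letter, elsewhere in a 600-kb stretch of chromosome 12 that holds the cluster, against 13.1% for Serpina3f and 16.7% for Serpina3h. With windows of 100 bases the shares were 3.86%, 4.91% and 3.04%. The repeated windows of Serpina3g lay mainly in its long coding exon (49.0% of the 50-base windows), and in the last exon they made up 0.824%. Levels of the 3 genes are therefore given per exon as well as per gene.

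Serpina3g, the intracellular inhibitor, stood at 29.05 and 29.54 TPM in the WT libraries against 226.7 and 196.8 TPM in the Dido1∆E16 libraries. Both Dido1∆E16 libraries lay far above both WT libraries, and the lower of them was 6.66 times the higher WT library. The means were 29.3 ± 0.347 TPM in WT against 211.7 ± 21.1 TPM in Dido1∆E16 pre-B cells (SD, n = 2), a ratio of 7.23, and the difference of log2(TPM + 1) was 2.81 with a standard error of 0.14. Among the 11888 genes, Serpina3g ranked above 49.9% and 52.4% of genes in the WT libraries and above 93.4% and 92.3% of genes in those of Dido1∆E16.

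Serpina3f, its neighbour upstream, stood at 21.1 and 44.8 TPM in the WT libraries against 78.2 and 39.9 TPM in the Dido1∆E16 libraries. The genotypes overlapped, since the lower Dido1∆E16 library was below the higher WT library. The means were 32.9 ± 16.8 TPM and 59.0 ± 27.0 TPM (SD, n = 2), a ratio of 1.79, and the log2 difference was 0.84 with a standard error of 0.51. The spread between libraries of a genotype was about as large as the difference between the genotypes. The level of Serpina3g over that of Serpina3f was 1.38 and 0.659 in the WT libraries against 2.90 and 4.93 in the Dido1∆E16 libraries.

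Serpina3h, the pseudogene, was listed at 0 TPM in each WT library, and at 9.60 TPM in Dido1∆E16 replicate 1 and 1.88 TPM in replicate 2. No fold is given against WT libraries listed at 0. The gene sum reached a mean of 1 TPM through the Dido1∆E16 libraries alone, and only with bases that lie outside Serpina3h. The value of 9.60 TPM belonged to one transcript and that of 1.88 TPM to another, as described per exon.

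Fewer cells of a type and less RNA per cell cannot be told apart in bulk samples. As background for these descriptions, limma with Benjamini-Hochberg adjustment called 3 of 11888 genes higher in Dido1∆E16 pre-B cells (0.0252%) and 6 in either direction (0.0505%). Both Dido1∆E16 libraries were above both WT libraries in 27.1% of all genes tested and below them in 15.6%. Of the 3 members, Serpina3g and Serpina3h were above in this sense and Serpina3f was not, which repeats what the choice of members used.

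**Figure D1:**
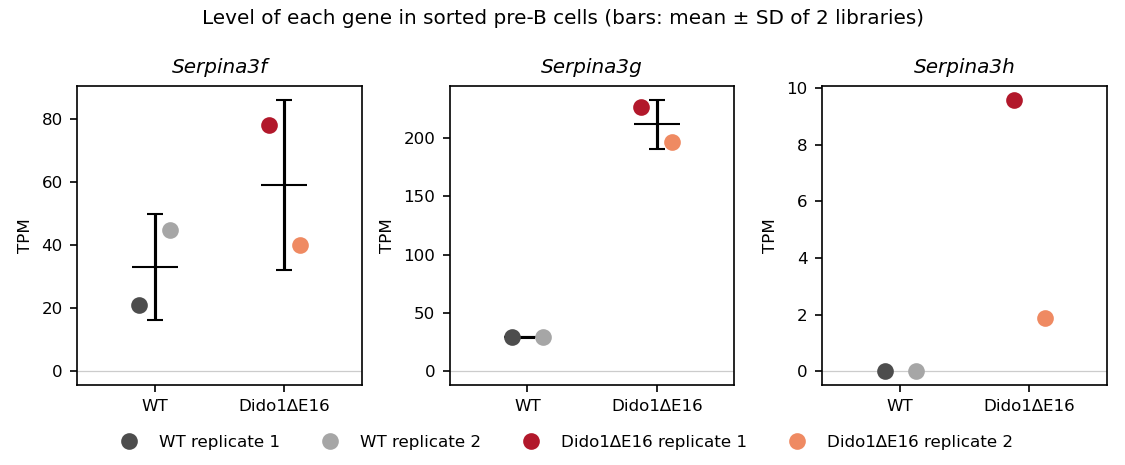
TPM of Serpina3f, Serpina3g and Serpina3h (vertical axes, a separate linear scale per gene) in the 2 WT and 2 Dido1∆E16 pre-B libraries, with each library as a point and, for Serpina3f and Serpina3g, the mean and SD of 2 libraries as a bar. The points of Serpina3g are separated by genotype (29.05 and 29.54 against 226.7 and 196.8 TPM), those of Serpina3f overlap, and Serpina3h is at 0 in both WT libraries.

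The exons showed where along each gene this RNA lay. Coverage per exon was put on the TPM scale with one factor per library. The only Serpina3g transcript above 0, uc029rxs.1 (chr12:104214544-104241934), is a composite: its exons 1 and 2 lie within Serpina3f and its exons 3 to 6 within Serpina3g. The transcript that begins at the first exon of Serpina3g itself, uc007oxa.2, was listed at 0 in all 4 libraries.

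Over the 4 exons within Serpina3g, the scaled coverage of the composite was 30.3 and 30.2 in the WT libraries against 240.5 and 210.8 in those of Dido1∆E16. Over the 2 exons within Serpina3f, it was 14.0 and 21.2 in the WT libraries against 52.7 and 20.8 in those of Dido1∆E16. The genotypes were separated in the first part and overlapped in the second. The exons within Serpina3g held 96.5% and 94.7% of the aligned bases of the composite in WT against 98.3% and 99.2% in Dido1∆E16 libraries. The last exon, with the lowest percent identity to the paralogues, showed scaled coverages of 35.6 and 37.6 in WT against 271.9 and 230.8 in Dido1∆E16 libraries, and the genotypes were separated there as they were in the long coding exon (19.4 and 19.4 against 191.8 and 170.3).

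Along Serpina3f, the transcript uc007oww.2 carried all of the TPM and the other 2 transcripts were listed at 0. Its last exon had scaled coverages of 25.6 and 50.2 in the WT libraries against 90.5 and 47.2 in those of Dido1∆E16, the same order of libraries as for the whole gene. Its exon of 212 bases, which Serpina3g lacks, had 24.8 and 32.5 in WT against 75.4 and 18.5 in Dido1∆E16 libraries, with Dido1∆E16 replicate 2 the lowest of the 4.

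For Serpina3h, the transcript uc029rxt.1 carried the level of Dido1∆E16 replicate 1. Its exon 1 has the coordinates of the first exon of Serpina3g (chr12:104236242-104236318) and its other 4 exons lie within Serpina3h. That first exon had a scaled coverage of 202.0 and held 79.0% of the aligned bases, and the 4 exons within Serpina3h averaged 2.09. In Dido1∆E16 replicate 2 the transcript uc007oxb.2, which lies wholly within Serpina3h, carried the level, with scaled coverages from 0.516 to 7.03 per exon. In both libraries the exon of 274 bases was the highest of those within Serpina3h, at 7.51 and 7.03. In the other 3 libraries no transcript above 0 contains the first exon of Serpina3g, so its coverage there is not shown by the files.

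When every exon was assigned by position, whatever transcript it was listed under, Serpina3g stood at 29.06 and 29.01 in WT against 239.0 and 202.5 in Dido1∆E16 libraries. Serpina3f stood at 21.7 and 45.5 in WT against 80.4 and 40.7 in Dido1∆E16 libraries, close to the sums by symbol. Serpina3h stood at 0 in both WT libraries against 2.01 and 1.88 in those of Dido1∆E16. The higher value of Serpina3h in Dido1∆E16 replicate 1 thus came from bases aligned to the first exon of Serpina3g. On its own exons, Serpina3h had a mean over all libraries below the cut of 1 TPM. This assignment was chosen after the data were seen.

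**Figure D2:**
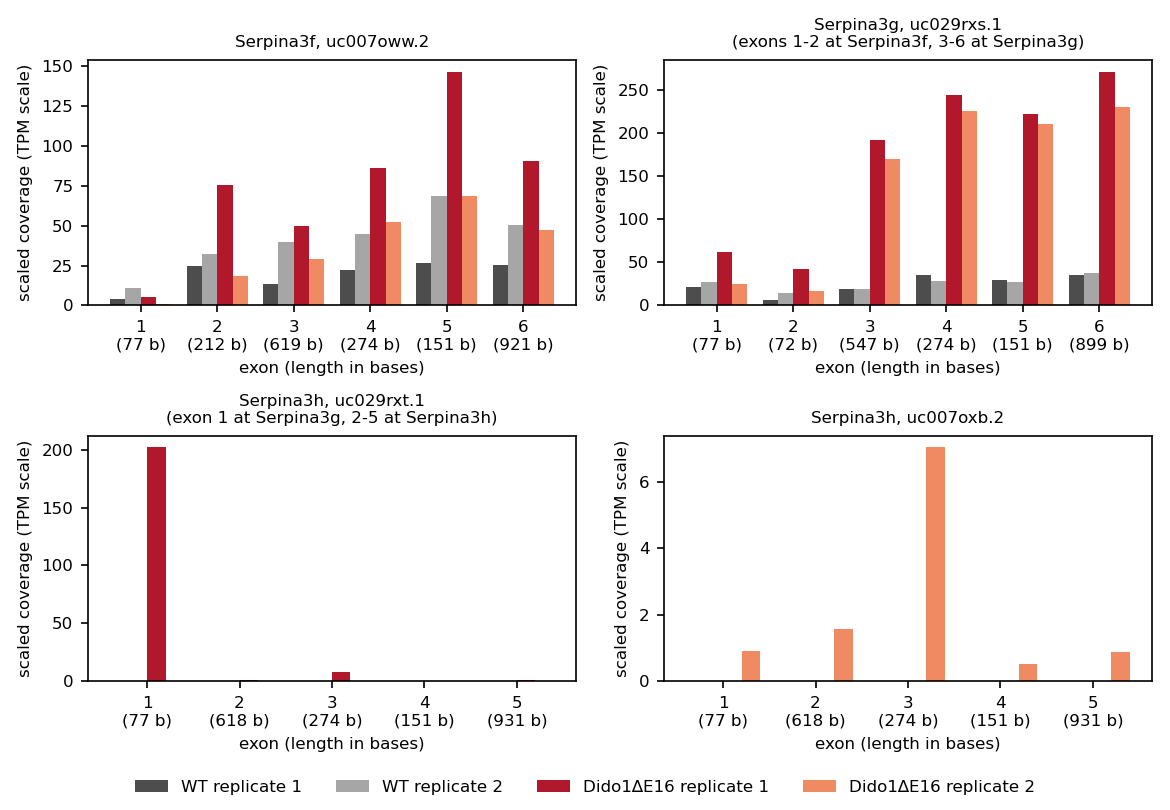
Scaled coverage (vertical axes, TPM scale, a separate scale per panel) of each exon (horizontal axes, with length in bases) of the 4 member transcripts above 0, with 1 bar per library. In the Serpina3g composite the bars of the Dido1∆E16 libraries rise from exon 3, where the transcript enters Serpina3g, and in uc029rxt.1 nearly all coverage is in exon 1, which lies at Serpina3g.

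The other Serpina3 genes were listed at or near 0. An exact 0 in these files can be a failed estimate, since 82 of the 11888 genes were at 0 in 1 library and at 10 TPM or more in the other 3, so a gene listed at 0, Serpina3h in WT included, is not shown to be silent. Serpina3n was listed at 3.095 TPM in Dido1∆E16 replicate 1 and at 0 in the other 3 libraries. Serpina3i was listed at 1.08 TPM in Dido1∆E16 replicate 2 and at 0 elsewhere. Serpina3a, Serpina3b, Serpina3c, Serpina3j, Serpina3k and Serpina3m were at 0 in all 4 libraries. Of the 22 other genes of the Serpina cluster in the files, 20 were at 0 throughout and none reached a mean of 1 TPM. The nearest genes with a mean of at least 1 TPM were Ifi27l2a on one side and Dicer1 on the other. Ifi27l2a, an interferon-inducible gene 770.9 kb before Serpina3f, had 467.8 and 979.3 TPM in WT against 497.5 and 525.6 TPM in Dido1∆E16 libraries, a log2 difference of -0.40 with a standard error of 0.38. Dicer1, the microRNA-processing nuclease 433.3 kb after Serpina3h, had 44.5 and 31.8 TPM in WT against 36.9 and 41.0 TPM in Dido1∆E16 libraries, a log2 difference of 0.05 with a standard error of 0.22. In both of these neighbours the genotypes overlapped.

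The 5 genes whose centred log2(TPM + 1) profile over the 4 libraries was nearest to that of Serpina3g were Tmem237, Igf1, Gstt3, Tctex1d2 and Pacsin3, at Euclidean distances from 0.0674 to 0.152. All 5 were at 0 in both WT libraries and lay between 5.21 and 7.20 TPM in those of Dido1∆E16. With WT libraries at 0, the size of their step on this scale is set by the pseudocount of 1, and so is their likeness to Serpina3g.

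The remaining genes were read from lists of serpins, of the proteases that serpins and cystatins inhibit, of cystatins, and of the pathway known to induce Serpina3g with its response genes. Of the 68 genes of these lists with a mean of at least 1 TPM, limma called none in either direction after Benjamini-Hochberg adjustment over all genes, and 15 had an unadjusted p under 0.05 (22.1%, where 11.7% of all genes tested did). Their median log2 difference was 0.27 and that of all genes tested was 0.07. Without the mean-variance trend, limma called 1 of them, Gzmm. Of 47 tested markers of cell types, described last, limma called none, and 11 had an unadjusted p under 0.05.

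Of 29 other serpins, 15 were at 0 in all libraries and 5 were tested, with none called and a median log2 difference of 0.81. Serpinf1, which encodes the secreted factor PEDF, had 7.46 and 6.00 TPM in WT against 20.7 and 17.9 TPM in Dido1∆E16 libraries, a log2 difference of 1.40 with a standard error of 0.23. Serpinb1a, an intracellular inhibitor of neutrophil serine proteases, had 73.7 and 64.5 TPM in WT against 115.3 and 127.5 TPM in Dido1∆E16 libraries, a log2 difference of 0.81 with a standard error of 0.14. Serpinf2, which encodes the plasmin inhibitor, was at 0 and 1.80 TPM in WT against 2.92 and 1.41 TPM in Dido1∆E16 libraries. The genotypes did not overlap in Serpinf1 and Serpinb1a, 2 of the 5 tested. Both Dido1∆E16 libraries were above both WT libraries in 27.1% of all genes tested. The lowest adjusted p in the list was 0.217 by limma.

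Of 26 lysosomal and granule proteases, 16 were tested and none was called, with a median log2 difference of 0.26. Gzmm, a granzyme, had 2.17 and 2.77 TPM in WT against 16.3 and 16.2 TPM in Dido1∆E16 libraries. The neutrophil proteases Prtn3 (2.77, 5.29, 9.79 and 118.3 TPM in WT replicates 1 and 2 and Dido1∆E16 replicates 1 and 2) and Elane (3.49, 10.5, 8.51 and 153.5 TPM) were high in Dido1∆E16 replicate 2 alone. Among the 3 cystatins and related inhibitors tested, none was called. Cst3 (cystatin C) had a log2 difference of 0.01 and Cstb (cystatin B) of 0.06. Slpi, an inhibitor of neutrophil elastase, was again highest in Dido1∆E16 replicate 2, at 39.4 TPM against 2.26 to 7.96 TPM in the other libraries.

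Of 26 tested genes of the interferon-gamma, Stat and NF-kB pathway, 18 had a positive and 8 a negative log2 difference, with a median of 0.15 and none called. Nfkb2, the p100 precursor of the non-canonical NF-kB pathway, had 131.0 and 125.4 TPM in WT against 299.6 and 318.4 TPM in Dido1∆E16 libraries, a log2 difference of 1.26 with a standard error of 0.11. Stat5a, a transducer of cytokine signals, had 32.2 and 31.8 TPM in WT against 52.7 and 55.4 TPM in Dido1∆E16 libraries, a log2 difference of 0.74 with a standard error of 0.14. Socs3, an inhibitor of cytokine signalling, was at 0 and 1.97 TPM in WT against 5.88 and 3.09 TPM in Dido1∆E16 libraries. The genotypes did not overlap in these 3 genes. Over the list, both Dido1∆E16 libraries were above both WT libraries in 9 of 26 genes and below them in 3. Among all genes tested these shares were 27.1% and 15.6%. The lowest adjusted p in the list was 0.154 by limma.

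Of 18 tested interferon-gamma response genes, 16 had a positive log2 difference, 12 were above both WT libraries in both Dido1∆E16 libraries (27.1% of all genes were), and the median was 0.49, with none called and a lowest adjusted p of 0.217 by limma. The guanylate-binding protein gene Gbp6 was at 1.57 and 0 TPM in WT against 9.70 and 5.24 TPM in Dido1∆E16 libraries, and the immunity-related GTPase gene Iigp1 at 0.581 and 0.526 TPM against 7.66 and 3.40 TPM. Ly6a, which encodes Sca-1, went the other way, at 22.3 and 13.7 TPM in WT against 6.11 and 0 TPM in Dido1∆E16 libraries. Cxcl9 and Cxcl10, induced strongly by interferon-gamma in myeloid cells, were at 0 in all 4 libraries.

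Markers of other cells and stages moved with or across the genotypes. The 8 markers of pro-B and large pre-B cells summed to 1042 and 169.6 TPM in WT against 2619 and 1745 TPM in Dido1∆E16 libraries, none at 0. In 6 of the 8, among them Vpreb1, Vpreb2 and Erg, both Dido1∆E16 libraries were above both WT libraries (27.1% of all genes tested were). Top2a and Mki67 were not, and were highest in WT replicate 1, at 502.6 and 227.9 TPM. The 10 neutrophil and monocyte markers summed to 244.2 and 2221 TPM in WT against 1072 and 9603 TPM in Dido1∆E16 libraries, and the 6 erythroid markers in the files to 337.7, 947.2, 751.8 and 8706 TPM in the same order. Markers of T and NK cells summed to between 20.8 and 41.2 TPM, with Cd3e, Cd3g, Cd4, Cd8a and Ncr1 at 0 throughout, dendritic markers to between 0.885 and 6.35 TPM, with Clec9a, Itgax, Xcr1 and Zbtb46 at 0, and stem and progenitor markers to between 1.503 and 5.78 TPM, with Gata2, Hoxa9, Mecom and Procr among those at 0. Markers of small pre-B cells, the labelled population, summed to between 9693 and 11350 TPM and had a median log2 difference of -0.05. Those of mature B cells summed to between 822.3 and 1155 TPM and those of plasma and switched B cells to between 230.2 and 281.4 TPM. The last list holds no constant-region gene of a switched antibody class. The study reports RNA of such a gene, Ighg2b, as higher in Dido1∆E16 pre-B samples. It reads this as more switched memory B cells sorted along with the pre-B cells than in WT. The part of pro-B, large pre-B and other cells in the levels of the 3 genes was not tested.

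**Figure D3:**
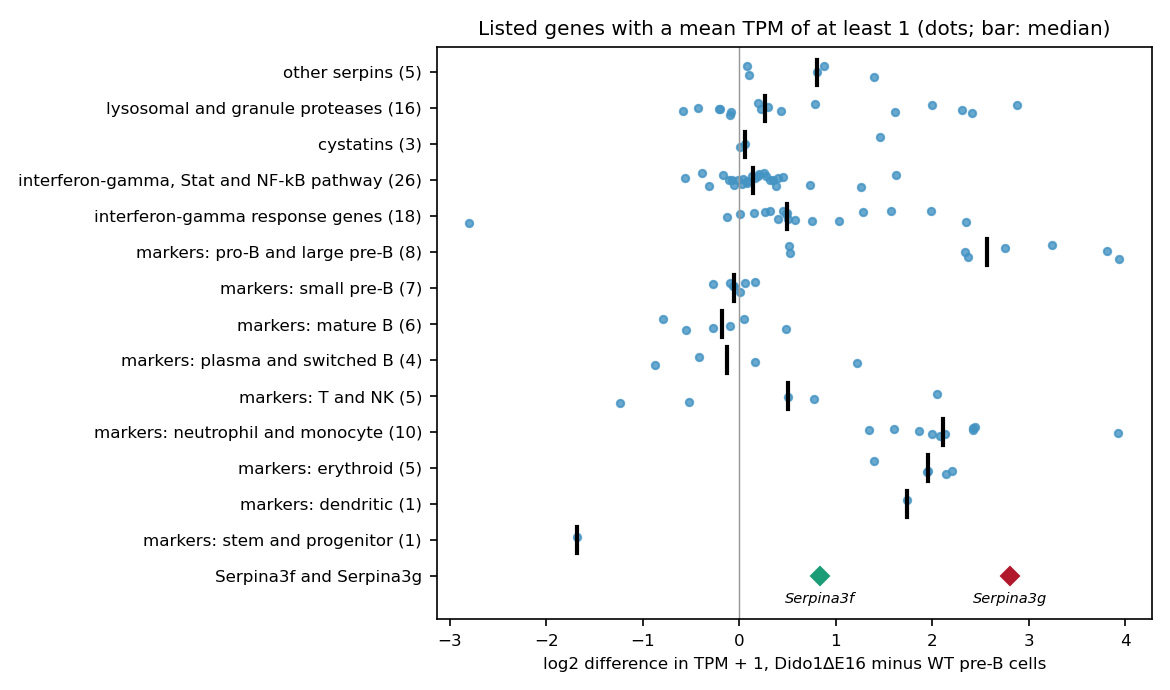
Log2 difference of TPM + 1, Dido1∆E16 minus WT (horizontal axis), of each listed gene with a mean of at least 1 TPM (dots, with the number tested in brackets and a bar at the median of the list), above Serpina3f and Serpina3g (diamonds). Serpina3g, at 2.81, was chosen with this contrast known, so its place beside the lists is a description. The interferon-gamma response genes range from -2.80 (Ly6a) to 2.35 (Gbp6). The markers of pro-B and large pre-B cells range from 0.519 (Mki67) to 3.94 (Vpreb2), with a median of 2.57.

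Chromatin around the genes was read in LSK cells, which precede pre-B cells by several stages. A peak here is a region called open in 1 library, given to a gene by the authors' annotation. Serpina3g had 3 and 4 MACS2 peaks in the WT libraries against 3 and 0 in the Dido1∆E16 libraries, and Serpina3h had 0 and 1 in WT against 0 and 0 in Dido1∆E16 libraries. Serpina3f had none under its own name, since the peak at its start was given to the composite transcript of Serpina3g. The numbers of Serpina3g overlapped between the genotypes (exact two-sided permutation test, p = 0.667, where 2 against 2 libraries cannot give a p below 0.3333). With 2 libraries per genotype, this p does not show that the numbers are alike. A count below either WT count in each Dido1∆E16 library was found in 35.6% of all genes with a MACS2 peak, and Serpina3g was not among them. In total, 27352 and 57739 MACS2 peaks were called in the WT libraries against 13208 and 16329 in those of Dido1∆E16, from 10249256 and 52050898 tags in WT against 22533077 and 44633938 tags in Dido1∆E16, which bears on every peak count given here. The peak lists hold no read counts per peak.

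The peak at the start of Serpina3f was called in both WT libraries (chr12:104214015-104214450, score 27, and chr12:104214016-104214592, score 48) and in Dido1∆E16 replicate 1 (chr12:104214242-104214445, score 27), and not in Dido1∆E16 replicate 2. The peak at the first exon of Serpina3g was called in the same 3 libraries, at chr12:104235905-104236313 (score 17) and chr12:104235637-104236412 (score 58) in WT, and at chr12:104236066-104236339 (score 34) in Dido1∆E16 replicate 1. With MACS2, the starts of Serpina3f and Serpina3g thus had a peak in 3 of 4 libraries, with the same library missing. Among all promoter regions with a MACS2 peak in both WT libraries, 8.56% had a peak in Dido1∆E16 replicate 1 and none in replicate 2, and 15% had none in either. HOMER called the Serpina3g start in the same 3 libraries. It called the Serpina3f start in both WT libraries and in neither Dido1∆E16 library.

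Another element lay between the genes, at 10439 bp from the first base of Serpina3f and at -11259 bp from that of Serpina3g, in intron 2 of the composite transcript. It was called in both WT libraries, at chr12:104224925-104225159 (score 47, above 67.8% of the peaks of that library) and chr12:104224649-104225317 (score 87, above 76.5%), and in neither Dido1∆E16 library. HOMER called it in the same 2 libraries. A WT-shared region without a peak in either Dido1∆E16 library was common, at 43.7% of all such regions and 63.3% of those in introns, so the absence of this peak was a frequent event in these libraries. The authors' list of regions with more signal in WT holds this element at chr12:104224648-104225288, with log2 tags of 6.09 and 5.78 in the WT libraries against 5.07 and 4.79 in those of Dido1∆E16. The mean was 1.00 log2 units lower in Dido1∆E16 LSK cells, and a region enters that list because it differs, so this is a description.

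Other peaks appeared in 1 library each with MACS2. WT replicate 2, the most deeply sequenced, had a distal peak at chr12:104190387-104190644 (score 37). It also had one at chr12:104245187-104245403 (score 78), given to Serpina3h. This one lies in an intron of uc029rxt.1 and outside Serpina3h itself, at -2583 bp from its first base. Dido1∆E16 replicate 1 had a distal peak at chr12:104206760-104206959 (score 22). With HOMER, Serpina3g had 3 peaks in WT replicate 1, 6 in WT replicate 2, 1 in Dido1∆E16 replicate 1 and 0 in Dido1∆E16 replicate 2, and a count below either WT count in each Dido1∆E16 library was found in 19.5% of all genes with a HOMER peak. The peak given to Serpina3h, before its first base, was called by HOMER in WT replicate 2 and in Dido1∆E16 replicate 2. It was the only peak of the 3 genes in Dido1∆E16 replicate 2 with either caller.

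**Figure D4:**
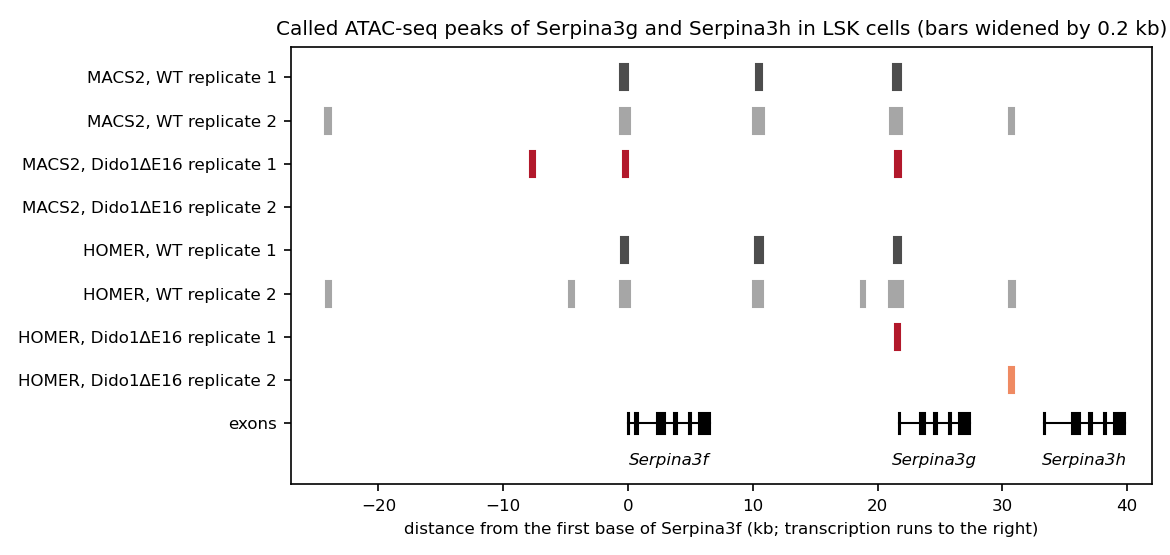
Peaks called by MACS2 and HOMER in each LSK library (rows) by distance from the first base of Serpina3f (horizontal axis, kb), above the exons of the 3 genes; bars are widened by 0.2 kb to be visible. The peaks at the starts of Serpina3f and Serpina3g are present in both WT libraries with both callers, the element between them is absent from both Dido1∆E16 libraries, and Dido1∆E16 replicate 2 has no MACS2 peak.

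The 3 promoters and the element between the genes are printed to show where their letters match those of known Stat and interferon regulatory factor sites. Letters of NF-kB sites were not searched. Each promoter is the 250 bases before the first base of the UCSC transcript, from GRCm38.p6, plus strand: Serpina3f at chr12:104214294-104214543, Serpina3g at chr12:104235992-104236241 and Serpina3h at chr12:104247646-104247895. The element is the peak of WT replicate 1 at chr12:104224925-104225159. Capitals mark matches on either strand to the letters TTCNNNGAA (the GAS site of Stat factors) and GAAANNGAA (the core of the ISRE site of interferon regulatory factors). In Serpina3f the GAS and ISRE matches overlap in 1 run of capitals.
Serpina3f upstream: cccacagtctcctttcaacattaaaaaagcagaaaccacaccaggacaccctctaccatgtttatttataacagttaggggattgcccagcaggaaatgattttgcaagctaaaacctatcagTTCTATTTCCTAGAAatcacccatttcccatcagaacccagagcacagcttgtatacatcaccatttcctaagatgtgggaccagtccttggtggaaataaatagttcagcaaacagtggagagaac
Serpina3g upstream: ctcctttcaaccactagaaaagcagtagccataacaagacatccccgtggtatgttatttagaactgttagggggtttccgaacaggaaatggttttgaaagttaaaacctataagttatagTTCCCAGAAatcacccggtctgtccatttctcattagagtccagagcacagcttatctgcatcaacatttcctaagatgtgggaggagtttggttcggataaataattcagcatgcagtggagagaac
Serpina3h upstream: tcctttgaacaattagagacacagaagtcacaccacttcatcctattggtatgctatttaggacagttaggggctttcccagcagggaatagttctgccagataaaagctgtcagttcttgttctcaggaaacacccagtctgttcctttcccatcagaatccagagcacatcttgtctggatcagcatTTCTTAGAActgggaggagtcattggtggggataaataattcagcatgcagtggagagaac
intron element: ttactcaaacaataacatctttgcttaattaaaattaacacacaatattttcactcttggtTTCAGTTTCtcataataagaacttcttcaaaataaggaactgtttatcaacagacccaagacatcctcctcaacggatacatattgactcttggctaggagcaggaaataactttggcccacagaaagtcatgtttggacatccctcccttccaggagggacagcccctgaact

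The promoters of Serpina3f and Serpina3g were 77.9% identical, less than their exons, and those of Serpina3g and Serpina3h 78.5%. All 3 promoters held 1 match to the GAS letters, 121 bases before the start in Serpina3f, 128 bases before it in Serpina3g and 61 bases before it in Serpina3h. Of all 32851 RefSeq promoters cut to the same 250 bases, 7.02% held the GAS letters. The ISRE core letters, held by 7.13% of promoters, were found in Serpina3f and in neither other promoter. The element between the genes held 1 ISRE core match, as did 750 of 7501 windows of 235 bases centred on intronic MACS2 peaks of WT replicate 1, and no match to the GAS letters, which 6.77% of these windows held. A match is a description of the letters and not a bound site.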

How the data were processed

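Per the labels and the methods of the study, the authors sorted pre-B and LSK cells from the bone marrow, sequenced pooled pre-B RNA and Omni-ATAC libraries, and worked on GRCm38/mm10. For RNA the authors used BWA-MEM 0.7.15, which does not splice reads, and StringTie 2.0 on UCSC known genes. What the authors deposited per transcript is TPM, FPKM and coverage, the last also per exon, without read counts, and their coverage adds up to between 1121.1 and 1635.3 aligned megabases per library. For ATAC the authors called peaks with MACS2 and HOMER per library. MACS2 peaks carry a score in the deposited files, and the authors' lists of differential regions hold log2 tags per library. Their fold changes and p-values, and a Galaxy table, were not used.

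TPM were summed by symbol. Of 63753 transcripts, 30124 had a symbol from the authors and 26256 from GENCODE by shared exonic bases of at least 50%, among them those of Serpina3f. Genes with a mean of at least 1 TPM were fitted as log2(TPM + 1) by genotype with limma 3.58.1 in R 4.3.3 (eBayes with trend, Benjamini-Hochberg), with a call at 0.05 for the adjusted p and 0.6 for the size of the log2 difference. The difference is on the log2(TPM + 1) scale and understates the change of low genes. The fit was tested on simulated data. Exon coverage was put on the TPM scale with 1 factor per library, TPM over coverage. Peaks on the assembled chromosomes were compared with bedtools 2.31.1 from 1 bp of overlap. Sequences came from the RefSeq copy of GRCm38.p6.

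The members and lists were chosen with earlier results of these data known. Named genes are the members, called listed genes, otherwise the 3 listed genes with the largest log2 difference per list, any Serpina3 gene above 0, the 5 genes nearest in profile to Serpina3g and the nearest expressed neighbours. Alternatives were another pseudocount, no filter, median centring, FPKM, no trend, a stricter threshold, a replicate block, each library left out, the main transcript, HOMER peaks, equal numbers of peaks and a window of 10 kb. The methods mention 3 ATAC samples per genotype and the labels 2, which were used.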

Additional observations from a re-analysis of the deposited data

How the results depend on the processing

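The log2 differences kept their sign under every alternative tried. Serpina3f ranged from 0.31 to 1.37 with 1 library left out, and Serpina3g from 2.71 to 2.91. With FPKM in place of TPM, Serpina3g stood at 2.70. The mean of Serpina3h in Dido1∆E16 libraries ranged from 1.88 to 9.60 TPM with 1 of them left out, was 4.80 TPM for its main transcript and 1.95 by exon position. With WT libraries at 0, the fitted log2 difference of Serpina3h depends on the pseudocount and is no bound: it was 2.47 with a pseudocount of 1, 5.455 with a pseudocount of 0.1, 2.38 with centring and 1.37 with FPKM.

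The calls over all genes were not stable. The 3 genes called higher and 3 called lower became 0 and 0 with a pseudocount of 0.1, without the filter, at the stricter threshold, with the replicate block, and with each library left out (0 to 0 in both directions). The lone library of a genotype is then assumed to vary like the other genotype. Without the trend, 74 were called higher and 13 lower, and 1 listed gene higher. The replicate block left the log2 differences of Serpina3f at 0.84 and of Serpina3g at 2.81. Same-numbered libraries deviated together with a correlation of 0.0463 over genes, and share only a number.

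The difference in the number of Serpina3g peaks, Dido1∆E16 minus WT, was -2.0 with MACS2, -4.0 with HOMER and reversed to 1.0 when each library was cut to its 13208 best-scoring peaks, where the libraries kept 1, 0, 3 and 0 peaks. It ranged from -3.5 to -0.5 with 1 library left out, and was -0.5 without Dido1∆E16 replicate 2. For Serpina3h it was -0.5 with MACS2, 0.0 with HOMER and with best-scoring peaks, -1.0 within 10 kb, and from -1.0 to 0.0 with 1 library left out. The share of genes with fewer peaks in both Dido1∆E16 libraries was 35.6% with MACS2, 19.5% with HOMER, 7.14% with best-scoring peaks and from 41.6% to 74.7% with 1 library left out. The cause of these shifts was not tested. Reads per peak and per transcript are not in the files, so levels near 1 TPM, as in Serpina3h, Serpina3i and Serpina3n, have no counting interval.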
